A study of Homo sapiens with 16 samples.

Results

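DNA replication and mitosis genes were followed across 4 treatment groups of Ccd18-Co, a human colon fibroblast cell line. The 59 genes were chosen by name for their known roles, 24 for S phase and 35 for mitosis, out of 40663 gene symbols in the deposited table, of which 26907 had at least 1 count. All 59 were detected. Bulk RNA-seq was done on 16 libraries, 4 per group. Unstimulated cells received DMSO without cytokines. The vehicle group received 3 pulses of 4 cytokines (10 ng/ml TNF, 10 ng/ml OSM, 10 ng/ml IL-17A and 0.1 ng/ml IL-1B), each pulse being 72 h in cytokines without serum and then 96 h of recovery, followed by 1 week of rest and 5 days in DMSO. The belinostat group received the same pulses and then 250 nM belinostat, a histone deacetylase inhibitor, for 5 days. The GSK-J4 group received the pulses and then 10 µM GSK-J4, an inhibitor of the histone demethylases JMJD3 and UTX, for 5 days. Doses are those of the sample labels. The text of the study gives another concentration for belinostat and, for its protein assay of these compounds, another for GSK-J4. It also gives another number of replicates and in places another concentration for IL-1B. The doses behind the belinostat and GSK-J4 values are therefore uncertain. RNA of every group was taken 2 weeks after the compound or DMSO, so all values describe cells long after exposure. All groups are 1 cell line grown in wells, and nothing in the labels says that the 4 replicates of a group came from separately started cultures, so p-values measure only the spread between these libraries, which may be technical.

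Cells copy their DNA in S phase and separate the copies in mitosis. The genes for S phase are switched on by E2F transcription factors once the retinoblastoma protein has been phosphorylated, and they encode the helicase loaded at origins, the polymerases and the enzymes that make deoxynucleotides. The mitotic genes are switched on later through B-MYB, FOXM1 and NF-Y, and encode the kinases, checkpoint proteins, kinetochores, spindle motors and the contractile ring. In resting cells both classes are held down by repressor complexes that sit at the same promoters.

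The depth was 14.42 to 19.48 M estimated counts (M, 1e6) per library, and between 0 and 2 of the 59 genes had no count in a library. The 10 fibroblast markers, led by collagens, summed to 486100 to 646900 normalized counts per library. The 5 epithelial markers summed to at most 18.69 and KRT20 was at 0 in every library, and of the immune markers CD3E was at 0 while CD68, which is not limited to macrophages, stood at 147.8 to 473.5. Replicate pairs within a group differed by 2.97 to 31.6 times the variance of pure counting error, so none looked like 1 library deposited more than once.

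Promoters are shown for the 2 genes of each class called in most comparisons, with ties (RRM2 with RRM1 and TK1, MKI67 with CENPF, BIRC5 and ANLN, at 3 calls each) broken by the smallest adjusted p, because the classes differ in the letters their promoters hold. Each line gives the 250 bases before the RefSeq start of transcription in GRCh38.p14, written 5′ to 3′ on the strand of the gene. TYMS, thymidylate synthase, lies at chr18:657403-657652 on the plus strand, and RRM2, the inducible small subunit of ribonucleotide reductase, at chr2:10122489-10122738 on the plus strand. TOP2A, the topoisomerase that untangles chromosomes, lies at chr17:40417897-40418146 on the minus strand, and MKI67, the Ki-67 protein that coats mitotic chromosomes, at chr10:128126424-128126673 on the minus strand. Capitals mark matches to any motif searched.
TYMS: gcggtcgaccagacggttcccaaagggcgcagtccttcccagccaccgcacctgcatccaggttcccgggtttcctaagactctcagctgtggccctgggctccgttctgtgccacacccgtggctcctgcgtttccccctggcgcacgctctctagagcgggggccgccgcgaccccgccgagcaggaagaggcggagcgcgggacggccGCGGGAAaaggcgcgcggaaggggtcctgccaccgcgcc
RRM2: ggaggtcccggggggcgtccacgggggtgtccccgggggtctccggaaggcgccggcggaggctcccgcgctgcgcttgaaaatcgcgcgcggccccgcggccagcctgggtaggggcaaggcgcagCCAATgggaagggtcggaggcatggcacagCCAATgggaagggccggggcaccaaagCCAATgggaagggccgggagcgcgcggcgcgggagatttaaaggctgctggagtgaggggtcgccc
TOP2A: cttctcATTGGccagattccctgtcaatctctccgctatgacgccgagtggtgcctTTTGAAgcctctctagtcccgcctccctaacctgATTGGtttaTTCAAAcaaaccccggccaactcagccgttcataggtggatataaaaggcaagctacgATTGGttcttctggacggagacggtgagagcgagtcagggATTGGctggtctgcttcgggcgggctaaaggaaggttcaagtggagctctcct
MKI67: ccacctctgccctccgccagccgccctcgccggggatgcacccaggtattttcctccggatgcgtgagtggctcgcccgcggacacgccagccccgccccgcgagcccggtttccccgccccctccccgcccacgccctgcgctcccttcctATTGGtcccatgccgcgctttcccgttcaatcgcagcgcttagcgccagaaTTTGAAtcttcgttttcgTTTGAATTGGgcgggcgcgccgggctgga

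3 motifs were searched on both strands of the RefSeq promoter table, in windows of 300 bases that run on for 50 bases past the start. They were the E2F letters TTCCCGC or TTGGCGC, the cell cycle homology region (CHR) letters TTTGAA or TTCGAA, and the NF-Y letters CCAAT. Among all 35116 promoters, 9.23% held an E2F match, 16.4% a CHR match and 34.6% a CCAAT match. Of the 20 S phase genes with an entry, 14 held an E2F match (70%), 2 a CHR match (10%) and 13 a CCAAT match (65%). Of the 29 mitotic genes with an entry, 5 held an E2F match (17.2%), 21 a CHR match (72.4%) and 22 a CCAAT match (75.9%). E2F and CHR matches thus divided the classes, while CCAAT matches were frequent in both. In the printed sequences, TYMS held 1 E2F match 39 bases before the start on the opposite strand, and RRM2 held CCAAT at 123, 93 and 66 bases before the start. TOP2A held CHR matches at 194 and 151 bases and CCAAT matches at 244, 160, 93 and 53 bases before the start. MKI67 held CHR matches at 47 and 29 bases and CCAAT matches at 98 and 24 bases before the start, and the last of each share 1 base. A match is a description of these letters, not a binding site. Another 30 replication genes and 40 mitosis genes that are not among the 59 showed the same division, with E2F matches in 14 of 25 (56%) and 12 of 35 (34.3%) promoters and CHR matches in 1 of 25 (4%) and 29 of 35 (82.9%).

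With every gene given the same weight, the group mean of both classes was lowest in unstimulated cells and highest in GSK-J4 cells. Each class was summarised per library as the mean log2(normalized count + 1) of its genes minus the mean of the unstimulated libraries. The S phase mean was -0.13 to 0.06 in unstimulated, 0.27 to 0.41 in vehicle, -0.05 to 0.53 in belinostat and 0.48 to 0.66 in GSK-J4 libraries. The mitotic mean was -0.09 to 0.11, 0.48 to 0.60, 0.23 to 0.82 and 0.76 to 1.09 in the same order of groups. For both classes the unstimulated, vehicle and GSK-J4 libraries occupied 3 ranges that did not overlap, while belinostat libraries spread from below the vehicle range into the GSK-J4 range. Summed as CPM (counts scaled to a common library total), where abundant genes weigh most, the S phase genes stood at 255.4 to 277.5 in unstimulated, 272.3 to 301.5 in vehicle, 290.1 to 297.1 in belinostat and 288.8 to 295.0 in GSK-J4 libraries. On that scale unstimulated and vehicle libraries overlapped and the belinostat mean (294.1) was above the GSK-J4 mean (290.9), whereas the mitotic sums of 77.85 to 87.79, 105.5 to 108.7, 102.9 to 114.7 and 114.0 to 129.4 kept unstimulated cells lowest and the GSK-J4 mean highest. The mitotic genes made up 22.5 to 25.5% of the counts of the 59 genes in unstimulated, 26.5 to 28.4% in vehicle, 25.9 to 28.3% in belinostat and 28.3 to 30.9% in GSK-J4 libraries. The share was thus lowest without cytokines, and of the other groups only vehicle replicate 13 (28.4%) and belinostat replicate 20 (28.3%) reached the lowest GSK-J4 library. In bulk RNA, more cells in cycle and more RNA of these genes per cell cannot be told apart.

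**Figure D1:**
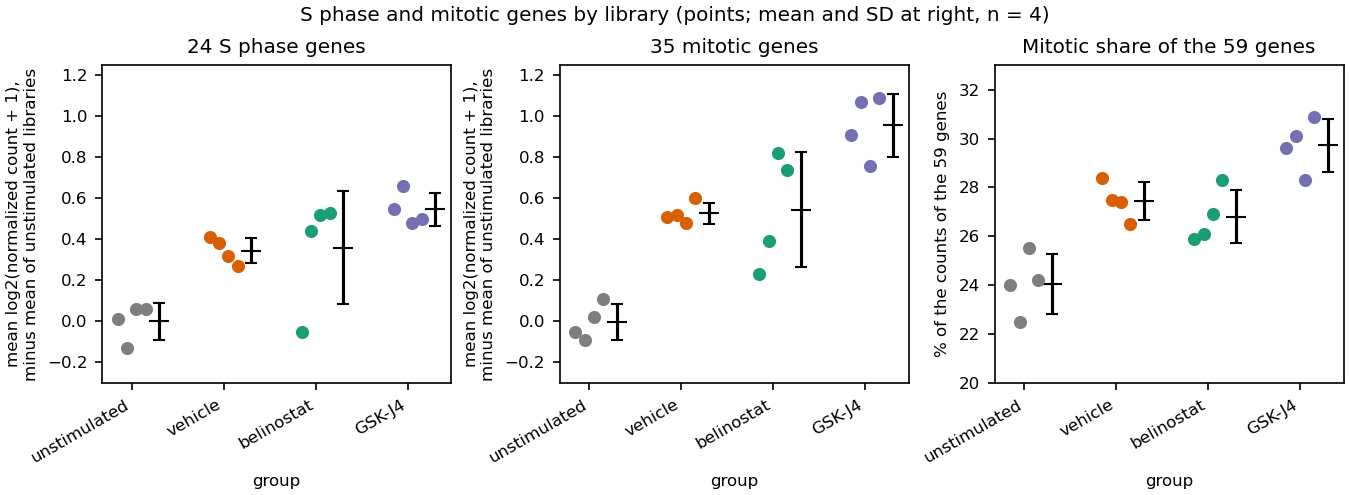
Points are the 16 libraries of the 4 groups, with the group mean and SD (n = 4) at right. The left and middle panels plot the mean log2(normalized count + 1) of the 24 S phase and 35 mitotic genes minus the unstimulated mean, and the right panel the mitotic percentage of the counts of the 59 genes on an axis that starts at 20%. GSK-J4 libraries sit at 0.76 to 1.09 in the mitotic panel, where belinostat libraries reach up to 0.82, and belinostat replicate 17 (-0.05) sits apart from its group in the S phase panel.

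The order of the group means was the same in most single genes. The unstimulated mean was the lowest of the 4 in 17 of 24 S phase and 31 of 35 mitotic genes, against 24.4% of 18602 genes with a mean of at least 1 normalized count. The GSK-J4 mean was the highest in 13 S phase and 27 mitotic genes, against 25.4% of those genes. A rise from unstimulated to vehicle to GSK-J4 was present in the means of 15 of 24 S phase genes (62.5%) and 27 of 35 mitotic genes (77.1%), and in 19.1% of the 18602. The average over all libraries was below 10 normalized counts in 4 S phase and 7 mitotic genes, whose group means are the least precise.

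The first question was whether cells that had gone through the cytokine pulses still differed from unstimulated cells in their cell cycle genes after the rest. With DESeq2 over all genes (adjusted p under 0.05), 6 of the 59 were called in vehicle against unstimulated libraries, and all 6 rose, where 1.74% of all genes tested were called and 1.1% were called higher. They were the nucleotide enzymes TK1 and RRM2 and the mitotic genes BIRC5, CENPF, TOP2A and ANLN. Of the 59, 3 were too low to be tested. The fitted log2 fold change was above 0 in 20 of 24 S phase genes and 33 of 35 mitotic genes, with medians of 0.15 and 0.48, while the median of all genes tested was -0.005. In 12 genes, 4 of S phase and 8 of mitosis, every vehicle library lay above every unstimulated library, against 3.43% of genes.

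TK1, thymidine kinase, which salvages thymidine for DNA synthesis, had 3.86, 7.008, 6.214 and 3.905 normalized counts in the unstimulated libraries and 20.94, 14.37, 14.9 and 21.21 in the vehicle libraries. All 4 vehicle libraries were above all 4 unstimulated libraries, and the rise of 1.77 in log2 units (SE 0.43, DESeq2 adjusted p = 0.00506) was the only call of this comparison that held in all 13 alternative fits, which leave out 1 library each (named below by group and replicate number) or change the test or scaling. RRM2, which limits the supply of deoxynucleotides, had 9.651, 11.01, 15.09 and 19.53 in unstimulated and 26.65, 39.29, 30.74 and 33.19 in vehicle libraries. Again the groups did not overlap, with a rise of 1.23 (SE 0.36, DESeq2 adjusted p = 0.0357). The RRM2 call was lost under edgeR (adjusted p = 0.101) and on leaving out unstimulated 1, 2 or 3 or vehicle 14, 15 or 16 (adjusted p = 0.0622 to 0.174).

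CENPF, a protein of the outer kinetochore, had 20.27, 24.03, 29.3 and 24.41 normalized counts in unstimulated and 40.93, 48.87, 44.71 and 61.78 in vehicle libraries. The libraries did not overlap and CENPF rose by 1.00 (SE 0.28, DESeq2 adjusted p = 0.0255). TOP2A had 55.97, 37.04, 32.85 and 46.86 in unstimulated and 79.95, 83.36, 84.76 and 55.32 in vehicle libraries. Here vehicle replicate 16 fell just below the highest unstimulated library, and TOP2A rose by 0.81 (SE 0.23, DESeq2 adjusted p = 0.0281). ANLN, anillin of the contractile ring, rose by 0.62 (SE 0.18, DESeq2 adjusted p = 0.0358) from 67.47 to 119.1 in unstimulated to 131.3 to 150.4 in vehicle libraries, and BIRC5, survivin of the chromosomal passenger complex, rose by 1.66 (SE 0.48, DESeq2 adjusted p = 0.037) from 2.663 to 6.755 to 13.33 to 15.33. None of these 4 mitotic calls held under edgeR (adjusted p = 0.0578 for BIRC5, which was also lost at 0.0688 with only the groups compared, 0.0829 for CENPF, 0.0946 for TOP2A and 0.106 for ANLN). The CENPF call was also lost without unstimulated 1, 2 or 4 or vehicle 14, 15 or 16 (0.0538 to 0.183), the TOP2A call without unstimulated 2, 3 or 4 or vehicle 13, 14 or 15 (0.0646 to 0.157), the ANLN call without unstimulated 1, 2 or 3 or any vehicle library (0.0585 to 0.204), and the BIRC5 call without unstimulated 2, 3 or 4 or any vehicle library (0.073 to 0.182).

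The core of the replication machinery gave no call in the helicase or clamp after cytokines (MCM2 to MCM7 and PCNA). MCM2, a subunit of the replicative helicase, had 108.1, 103.1, 94.99 and 100.6 normalized counts in unstimulated and 99.94, 96.78, 118.3 and 119.9 in vehicle libraries, which overlapped (log2 fold change 0.10, SE 0.14). PCNA, the sliding clamp of the polymerases, had 842.5, 719.8, 710.2 and 704.9 in unstimulated and 704.3, 755.1, 880.2 and 940.5 in vehicle libraries, also overlapping (0.14, SE 0.09). Neither MCM2 nor PCNA passed the test (DESeq2 adjusted p = 0.965 and 0.784). Of the 10 genes that load and fire the helicase, 9 had a fitted change above 0 and 1 below. In 2 of them all vehicle libraries lay above all unstimulated libraries, without a call. These were MCM6 (0.10, SE 0.07, DESeq2 adjusted p = 0.787) and CDC45 (1.29, SE 0.62, DESeq2 adjusted p = 0.497), the latter at means of only 3.047 and 7.532. CDK1, the kinase that drives entry into mitosis, had 199.8, 145.2, 168.7 and 157.2 in unstimulated and 224.6, 220.4, 219.8 and 259.1 in vehicle libraries. Its libraries did not overlap, but the difference of 0.46 (SE 0.16) was not called (DESeq2 adjusted p = 0.145). It was called only in the alternative with only the groups compared (DESeq2 adjusted p = 0.0234). MKI67 was likewise without overlap, at 9.765 to 14.48 against 19.04 to 32.27, and not called (0.96, SE 0.40, DESeq2 adjusted p = 0.336).

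**Figure D2:**
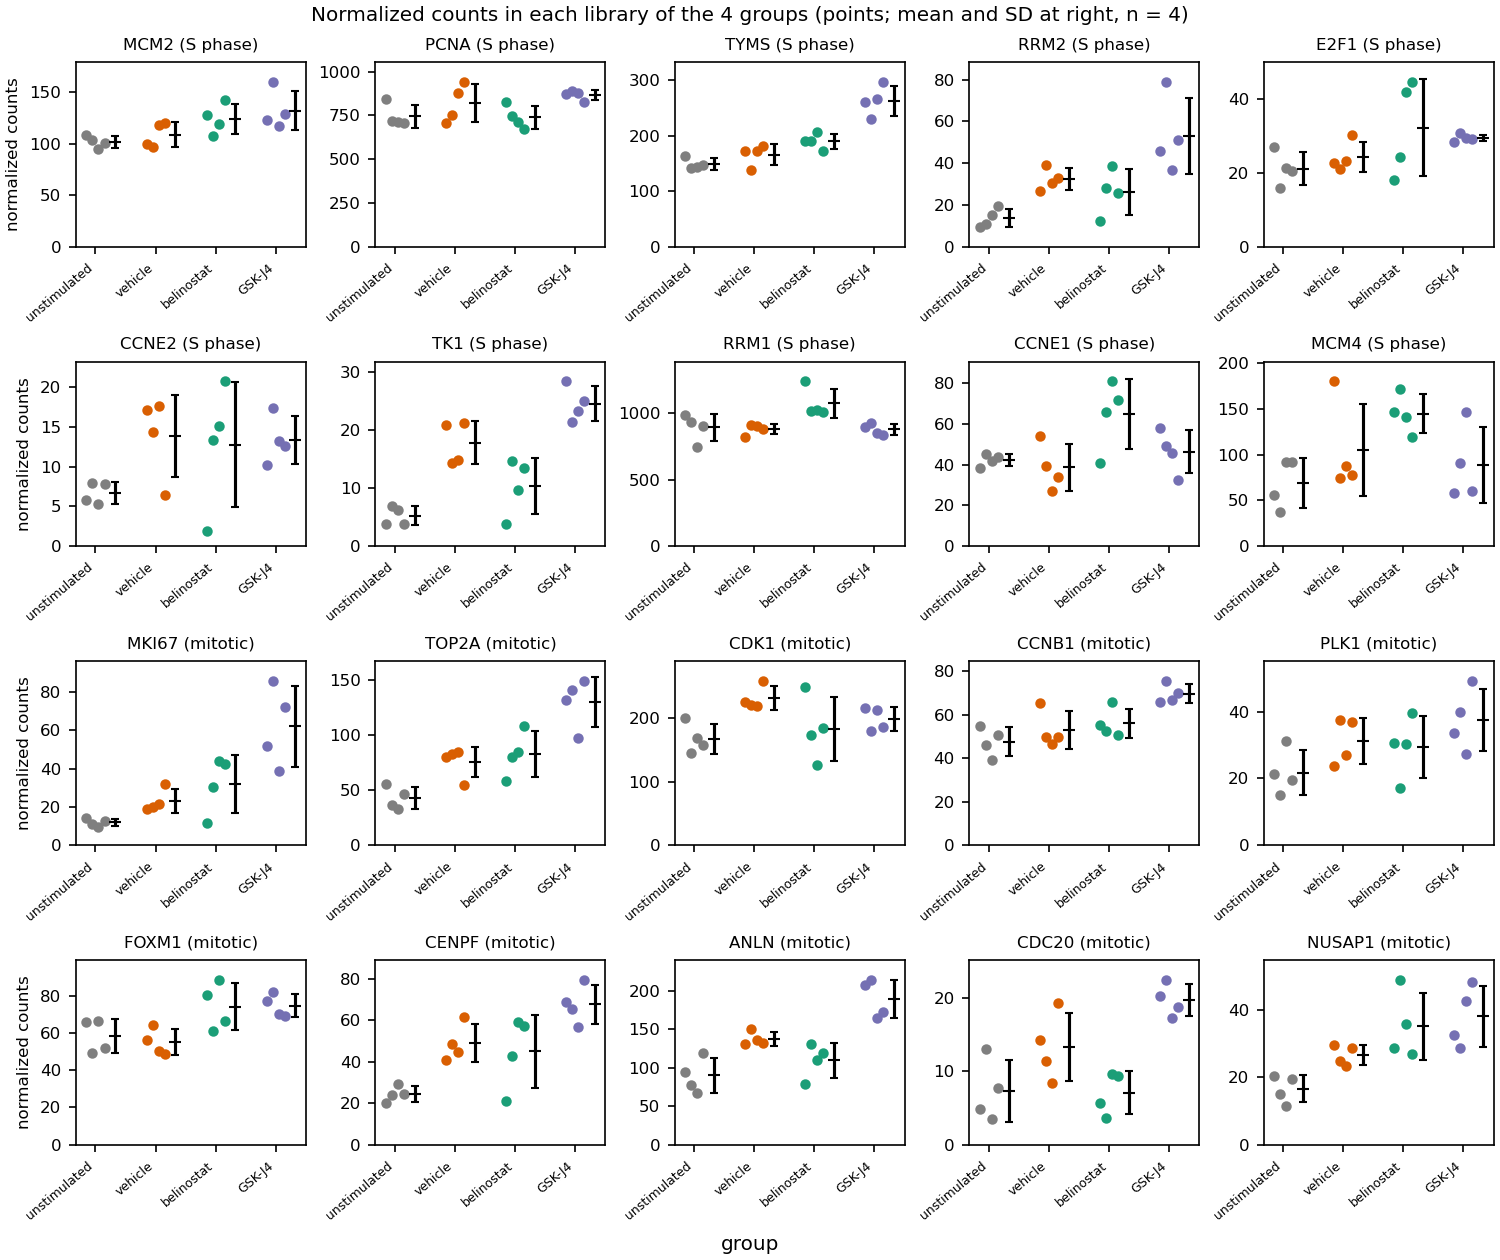
Points are normalized counts in each library of the 4 groups for the 20 genes whose values are given library by library, with the group mean and SD (n = 4) at right and every axis starting at 0. TYMS is highest in the 4 GSK-J4 libraries (230.4 to 296.6), and RRM1 in belinostat replicate 17 (1238).

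Of the 6 comparisons, that of GSK-J4 with unstimulated cells, pulses plus compound against neither, had most of the 59 genes called. Here 18 of the 59 genes were called and all 18 rose, 4 of S phase and 14 of mitosis. Of all genes tested, 5.55% were called and 3.18% were called higher, and 3 of the 59 were too low to be tested. The median log2 fold change was 0.43 over the S phase genes and 1.08 over the mitotic genes, with 21 of 24 and 34 of 35 above 0 and a median of -0.008 over all genes tested. In 28 genes, 9 of S phase and 19 of mitosis, all GSK-J4 libraries were above all unstimulated libraries, against 6.4% of genes. Of the 18 calls, 18 held under edgeR and 13 held in all 13 alternative fits.

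The rise was uneven between roles. Among the 10 genes that load and fire the helicase 1 was called (median 0.37), among the 7 of synthesis and nucleotide supply 3 were called (0.22), and among the 7 S phase regulators, which include the E2F factors and E cyclins, 0 were called by DESeq2 or edgeR (median 0.51, with 1 gene at an unadjusted p under 0.05 in either). Of the mitotic roles, 1 of 9 kinases and cyclins (median 0.78), 2 of 7 checkpoint and anaphase genes (0.93), 2 of 6 kinetochore genes (1.18), 6 of 9 spindle and motor genes (1.20) and 3 of 4 genes of chromosomes and cytokinesis (1.34) were called. The medians were lowest for the kinases and cyclins and highest for the genes of chromosomes and cytokinesis, a difference between roles that was not tested. The S phase calls lay almost wholly in nucleotide supply, namely TYMS, RRM2 and TK1, with MCM6 of the helicase as the other.

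**Figure D3:**
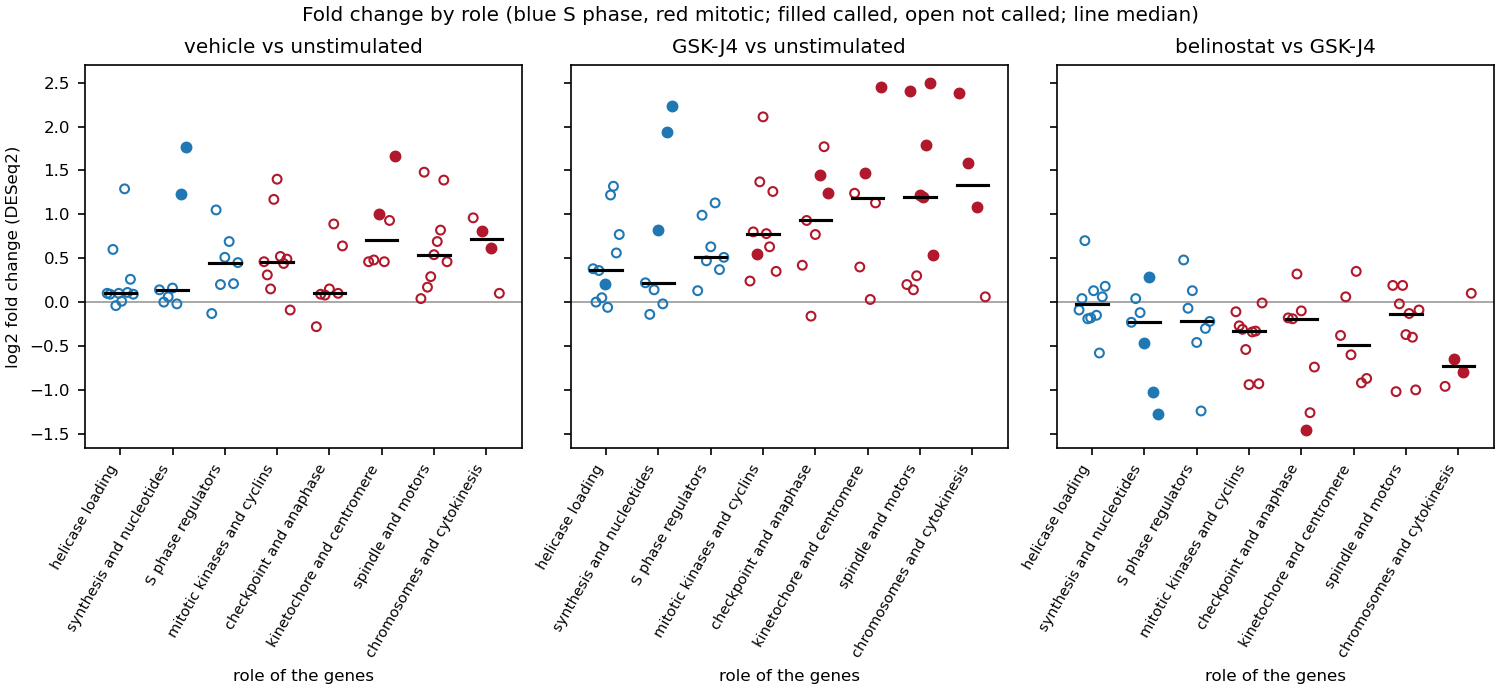
Each point is the DESeq2 log2 fold change of 1 gene, blue for S phase and red for mitosis, filled where called and open where not, with the median of each role as a line. In GSK-J4 against unstimulated cells the medians of the mitotic roles run from 0.78 to 1.34, and in belinostat against GSK-J4 cells the medians of all 8 roles lie below 0, from -0.02 to -0.72.

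TYMS, which makes thymidylate, had 164.1, 141.2, 143.8 and 147.4 normalized counts in unstimulated, 172.3, 138.9, 172.3 and 180.7 in vehicle and 260.4, 230.4, 265.2 and 296.6 in GSK-J4 libraries. Every GSK-J4 library was above every unstimulated and vehicle library, and the rise over unstimulated cells was 0.82 (SE 0.11, DESeq2 adjusted p = 1.31e-10). RRM2 had 45.77, 78.84, 36.57 and 51.36 in GSK-J4 libraries, all above the unstimulated range of 9.651 to 19.53, a rise of 1.94 (SE 0.35, DESeq2 adjusted p = 3.32e-06). TK1 had 28.48, 21.5, 23.37 and 25.16, also without overlap, and rose by 2.23 (SE 0.43, DESeq2 adjusted p = 1.73e-05). These 3 enzymes of deoxynucleotide supply held in all 13 alternative fits. MCM6 rose by only 0.21 (SE 0.07, DESeq2 adjusted p = 0.0376), from 453.0 to 498.9 to 519.1 to 609.2, and its call was lost without unstimulated 2, 3 or 4 or GSK-J4 21 or 24 (adjusted p = 0.0575 to 0.211), with total count factors or with only the groups compared (0.058 to 0.114).

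MKI67, the usual marker of cells in cycle, had 14.48, 11.01, 9.765 and 12.69 normalized counts in unstimulated and 51.87, 86.01, 38.61 and 72.32 in GSK-J4 libraries. The lowest GSK-J4 library was well above the highest unstimulated one, and MKI67 rose by 2.38 (SE 0.39, DESeq2 adjusted p = 1.46e-07). TOP2A had 132.2, 141.3, 97.53 and 149.9 in GSK-J4 libraries against 32.85 to 55.97 in unstimulated libraries, a rise of 1.59 (SE 0.22, DESeq2 adjusted p = 4.31e-10). ANLN had 207.5, 214, 164.6 and 171.9 against 67.47 to 119.1, a rise of 1.08 (SE 0.18, DESeq2 adjusted p = 1.6e-07). All 3 were without overlap and held in every alternative fit.

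Genes of the spindle and kinetochore rose with them. CENPF had 69.16, 65.53, 56.89 and 79.66 normalized counts in GSK-J4 libraries, all above the unstimulated libraries, and rose by 1.47 (DESeq2 adjusted p = 1.15e-05). NUSAP1, which binds spindle microtubules, had 20.27, 15.02, 11.54 and 19.53 in unstimulated and 32.55, 28.67, 42.67 and 48.21 in GSK-J4 libraries and rose by 1.20 (DESeq2 adjusted p = 0.00174). The increases of BIRC5 (2.45), KIF20A (2.41), a kinesin of the midzone, HMMR (1.79), PTTG1 (1.24), the securin that restrains separase, and TPX2 (1.22), which activates Aurora A, also held in all 13 alternative fits. CDC20, the activator of the anaphase-promoting complex, had 4.825, 13.01, 3.551 and 7.811 in unstimulated and 20.34, 22.53, 17.27 and 18.87 in GSK-J4 libraries, without overlap (1.45, SE 0.44, DESeq2 adjusted p = 0.021). That call was lost without unstimulated 1, 3 or 4 or GSK-J4 21 or 22 (adjusted p = 0.0566 to 0.108). DLGAP5, a spindle protein, rose by 2.50 (SE 0.70, DESeq2 adjusted p = 0.0116) but from at most 2.929 counts, was not tested under the low count filter or without GSK-J4 22, and was not called without GSK-J4 24 (adjusted p = 0.0801). PRC1, which bundles midzone microtubules, rose by 0.54 (DESeq2 adjusted p = 0.0293), a call lost with only the groups compared (0.108) and without unstimulated 1 or 3 or any GSK-J4 library (0.0599 to 0.139).

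Of the 9 kinases and cyclins of mitotic entry, 1 was called. CCNB1, the cyclin partner of CDK1, had 55.01, 46.05, 39.06 and 50.77 normalized counts in unstimulated and 66.11, 75.77, 67.05 and 70.23 in GSK-J4 libraries. The libraries did not overlap and CCNB1 rose by 0.55 (SE 0.18, DESeq2 adjusted p = 0.0465), a call lost with only the groups compared (0.0876) and without unstimulated 2, 3 or 4 or any GSK-J4 library (0.0755 to 0.184). CDK1 itself had 215.6, 179.2, 213.3 and 186.6 in GSK-J4 libraries, overlapped with unstimulated libraries and was not called (0.24, SE 0.16, DESeq2 adjusted p = 0.54). PLK1, the Polo kinase, had 21.23, 15.02, 31.07 and 19.53 in unstimulated and 33.56, 39.93, 27.43 and 49.26 in GSK-J4 libraries, of which 1 lay within the unstimulated range. PLK1 was not called (0.78, SE 0.30, DESeq2 adjusted p = 0.124), except without unstimulated 3 (DESeq2 adjusted p = 0.0451). FOXM1, the transcription factor of the late mitotic genes, had 65.62, 49.05, 66.58 and 51.75 in unstimulated and 77.3, 81.91, 70.1 and 69.18 in GSK-J4 libraries. Its libraries did not overlap, but the difference of 0.35 (SE 0.18) was not called (DESeq2 adjusted p = 0.32). Other kinases and cyclins had larger fitted differences without a call. The cyclin genes CCNB2 (1.37, SE 0.46, DESeq2 adjusted p = 0.0544) and CCNA2 (0.80, SE 0.33, DESeq2 adjusted p = 0.166) were without overlap. The kinase gene AURKB differed by 1.26 (SE 0.61, DESeq2 adjusted p = 0.295). CCNB2 was called under the low count filter and without unstimulated 3 or GSK-J4 21 (DESeq2 adjusted p = 0.0437, 0.0229 and 0.0477).

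The transcription factor and cyclins that start S phase gave no call in the main fit of any of the 6 comparisons. CCNE1 was called in some alternative fits, given further on. E2F1 had 27.02, 16.02, 21.31 and 20.5 normalized counts in unstimulated, 22.84, 21.08, 23.29 and 30.43 in vehicle, 18.14, 24.42, 42.07 and 44.65 in belinostat and 28.48, 30.72, 29.46 and 29.35 in GSK-J4 libraries. The GSK-J4 libraries were close together and just above the unstimulated range, whereas 2 belinostat libraries lay within that range and 2 far above it. CCNE2, cyclin E2, had 5.79, 8.009, 5.326 and 7.811 in unstimulated, 17.13, 14.37, 17.7 and 6.455 in vehicle, 1.909, 13.43, 15.1 and 20.77 in belinostat and 10.17, 17.41, 13.21 and 12.58 in GSK-J4 libraries. It was higher in most libraries after cytokines, but vehicle replicate 16 and belinostat replicate 17 lay within or below the unstimulated range. CCNE2 shares 1629 exonic bases, 37% of its exonic length, with INTS8 on the opposite strand. INTS8 had a mean of 735.6 normalized counts against 11.7 for CCNE2, and without strand information reads of the shared bases cannot be told apart. MCM3, MCM7, ECT2 and KIF23 had nearly level means, for example 589.7, 628.8, 607.9 and 591.2 for MCM3 and 236.2, 266.1, 257.6 and 260.5 for KIF23 in unstimulated, vehicle, belinostat and GSK-J4 libraries. Across the 6 comparisons 20 of the 59 genes were called at least once, 6 of S phase and 14 of mitosis, and 39 were never called. In single comparisons 1.74% to 12.2% of all genes tested were called. The share of all genes called at least once was not counted, so the 20 have no background to be set against.

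**Figure D4:**
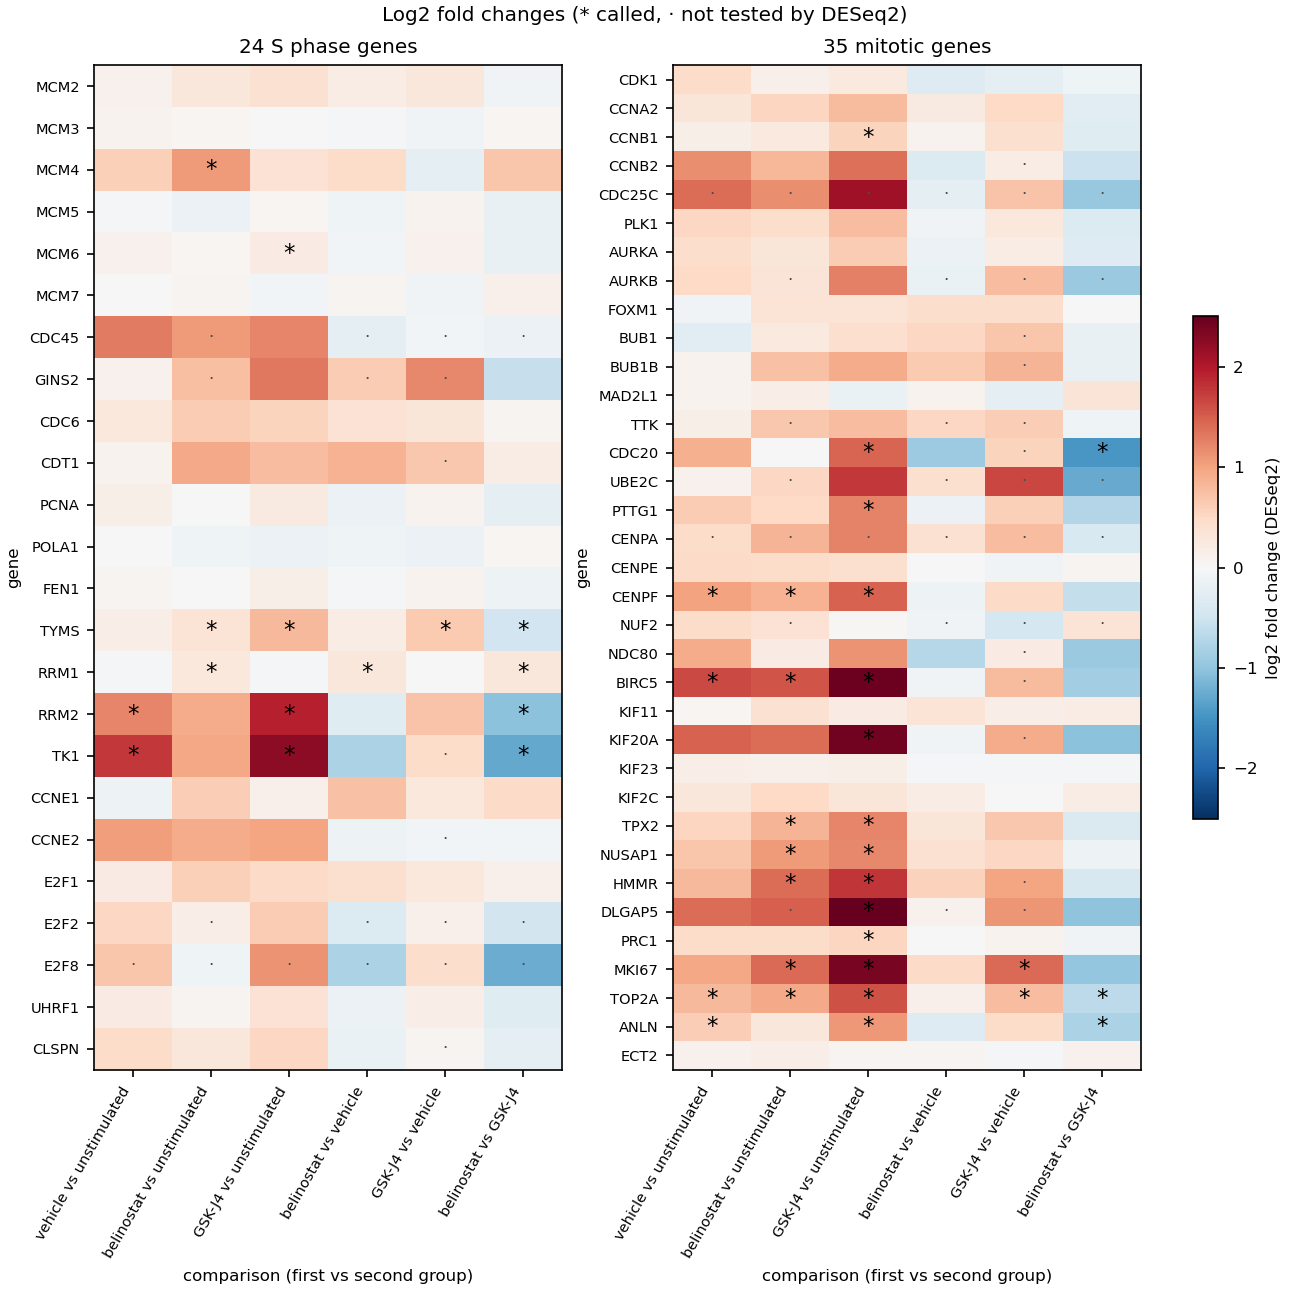
Colour gives the DESeq2 log2 fold change (red higher, blue lower in the first group named) of 24 S phase genes at left and 35 mitotic genes at right, in rows, for the 6 comparisons in columns. Stars mark calls and dots mark genes not tested. The GSK-J4 against unstimulated column holds 18 stars, and the belinostat against vehicle column holds 1, for RRM1.

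The next question was what each compound changed relative to pulsed cells given DMSO. Both comparisons use the same 4 vehicle libraries, as the comparisons with unstimulated cells share those libraries, so they are not independent of each other. In GSK-J4 against vehicle libraries, 3 of the 59 genes were called and all 3 rose, where 1.92% of all genes tested were called and 1.1% were called higher. DESeq2 set 23 of the 59 aside as too low to test here, 8 of S phase and 15 of mitosis. The median log2 fold change was 0.12 over the 24 S phase genes and 0.49 over the 35 mitotic genes, with 17 and 29 above 0, against -0.002 over all genes tested. In 12 genes every GSK-J4 library lay above every vehicle library (4.66% of genes did so), and in 1 gene, CDK1, below it (3.66% of genes).

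TYMS rose by 0.66 (SE 0.11, DESeq2 adjusted p = 1.85e-06) over vehicle libraries, from the values given above, and held in all 13 alternative fits. Its transcript shares 967 exonic bases, 39.9% of the exonic length of TYMS, with ENOSF1 on the opposite strand, and without strand information such reads cannot be told apart. ENOSF1 stood at 289.4 to 351.3 normalized counts in vehicle and 285.5 to 374.2 in GSK-J4 libraries, which overlapped. Whether shared reads add to the TYMS difference was not tested. MKI67 had 19.04, 20.12, 21.42 and 32.27 in vehicle libraries against 38.61 to 86.01 in GSK-J4 libraries, a rise of 1.42 (SE 0.36, DESeq2 adjusted p = 0.00843). TOP2A rose by 0.78 (SE 0.21, DESeq2 adjusted p = 0.0195), from 55.32 to 84.76 in vehicle to 97.53 to 149.9 in GSK-J4 libraries. The libraries did not overlap for either gene, yet both calls were lost under edgeR (adjusted p = 0.0616 and 0.0861), that of MKI67 also without vehicle 13, 14 or 15 or GSK-J4 22 or 24 (0.054 to 0.111) and that of TOP2A without vehicle 13, 14 or 16 or GSK-J4 21, 22 or 24 (0.0512 to 0.133).

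Further mitotic genes differed in the same direction without a call. ANLN had 131.3, 150.4, 136 and 131.9 normalized counts in vehicle libraries, all below the GSK-J4 libraries (0.46, SE 0.17, DESeq2 adjusted p = 0.175). It was called only in the alternative with only the groups compared (DESeq2 adjusted p = 0.0191). CCNB1 had 65.67, 49.83, 46.57 and 49.79 in vehicle libraries, also all below GSK-J4 (0.40, SE 0.18, DESeq2 adjusted p = 0.37). FOXM1 had 56.16, 64.2, 50.3 and 48.87 in vehicle libraries, again all below (0.44, SE 0.18, DESeq2 adjusted p = 0.263). UBE2C, the ubiquitin-conjugating enzyme of the anaphase-promoting complex, had 0.9518 to 5.749 in vehicle and 7.112 to 10.48 in GSK-J4 libraries and was too low to be tested. CDK1 went the other way, at 219.8 to 259.1 in vehicle and 179.2 to 215.6 in GSK-J4 libraries, with a difference of -0.22 (SE 0.16, DESeq2 adjusted p = 0.743).

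After belinostat, 1 of the 59 genes was called against vehicle libraries, where 6.26% of all genes tested were called and 3.12% were called higher. DESeq2 set 11 of the 59 aside as too low to test. The medians were -0.06 over the S phase and 0.06 over the mitotic genes, with 10 of 24 and 18 of 35 above 0, close to the median of 0.003 over all genes tested. In 2 genes all belinostat libraries lay above all vehicle libraries (4.83% of genes did so) and in 1, ANLN, below them (4.81%). The called gene was RRM1, the large subunit of ribonucleotide reductase, with 823.3, 908.4, 905.4 and 882.4 normalized counts in vehicle and 1238, 1015, 1025 and 1011 in belinostat libraries. All belinostat libraries were higher, replicate 17 by far, and RRM1 rose by 0.29 (SE 0.09, DESeq2 adjusted p = 0.0212). The call was lost without belinostat 17 (0.21, adjusted p = 0.0974), vehicle replicate 13 (0.26, adjusted p = 0.123) or vehicle 16 (0.29, adjusted p = 0.0638).

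CCNE1, cyclin E1, lay just past the threshold. It had 54.25, 39.29, 27.01 and 34.12 normalized counts in vehicle and 41.05, 65.94, 80.91 and 71.64 in belinostat libraries, so that 3 belinostat libraries were above all vehicle libraries and replicate 17 was within their range (0.74, SE 0.25, DESeq2 adjusted p = 0.0512). Without belinostat replicate 17 the difference was 0.92 and called (adjusted p = 0.00373), and so it was without vehicle 13 (0.95, adjusted p = 0.0121). With no library left out, CCNE1 was called with total count factors (0.74, DESeq2 adjusted p = 0.048) and under the low count filter (0.75, DESeq2 adjusted p = 0.0444). Without belinostat 17 it was also called higher than in GSK-J4 (0.65, DESeq2 adjusted p = 0.0464) and unstimulated libraries (0.79, DESeq2 adjusted p = 0.0162). CDK1 had 249.2, 173.4, 126.2 and 183.8 in belinostat libraries, where replicate 17 was within and the other 3 below the vehicle range (-0.33, SE 0.16, DESeq2 adjusted p = 0.278). Without replicate 17 CDK1 was called lower (-0.52, adjusted p = 0.00625). FOXM1 had 80.19, 61.05, 88.46 and 66.45 in belinostat libraries, overlapping with vehicle in 1 library (0.44, SE 0.18, DESeq2 adjusted p = 0.151). CCNB1 at 55.37, 52.51, 65.81 and 50.88 and PLK1 at 30.55, 17.1, 30.21 and 39.46 overlapped with the vehicle ranges of 46.57 to 65.67 and 23.8 to 37.37 (0.09, SE 0.19, and -0.08, SE 0.30).

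Belinostat replicate 17 stood apart from the other 3 belinostat libraries, and not only in these genes. Over 12861 to 12970 genes, its pairs with them differed by 26.5 to 31.6 times the variance of counting error. The other belinostat pairs differed by 3.69 to 4.7 times, while unstimulated 1 and 3 reached 31.3. Replicate 18 was the lowest of the group in 12 mitotic genes. Replicate 17 was the lowest in 16 of 24 S phase genes and 17 of 35 mitotic genes, a share not counted over all genes. Its S phase mean was -0.05 against 0.44 to 0.53. For MKI67 it had 11.46 normalized counts against 30.53, 44.23 and 42.57 in replicates 18, 19 and 20, and for RRM2 12.41 against 28.08, 38.84 and 25.96. For CENPF it had 21 against 42.74, 59.34 and 57.11, within the unstimulated range. CDK1 and RRM1 were highest in the same library, so that it was not low in every gene. CDKN1A, the p21 inhibitor of cyclin-dependent kinases, stood at 8676 in this library and at 5772 to 6274 in the others, and CD68 at 473.5, the highest of all libraries. Whether this library differs for a technical reason was not tested.

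Compared directly, belinostat and GSK-J4 cells differed in 7 of the 59 genes, 6 lower and 1 higher after belinostat, where 12.2% of all genes tested were called, 6.01% lower and 6.18% higher. The share of the 59 called is therefore close to that of all genes, and 8 of the 59 were too low to be tested. The medians were -0.14 over the S phase and -0.34 over the mitotic genes, with 15 of 24 and 29 of 35 below 0 against a median of 0.003. In 9 genes all belinostat libraries lay below all GSK-J4 libraries and in 2 above, against 7.08% and 7.28% of genes. All 7 calls held under edgeR.

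TYMS had 190, 190.5, 206.1 and 173.4 normalized counts in belinostat libraries, every one below the GSK-J4 libraries, a difference of -0.47 (SE 0.11, DESeq2 adjusted p = 0.00047). ANLN had 78.29, 130.7, 110 and 119.4, also every one below, with -0.80 (SE 0.17, DESeq2 adjusted p = 0.000126). These calls held in all 13 alternative fits. TK1 had 3.819, 14.65, 9.709 and 13.5, without overlap (-1.27, SE 0.38, DESeq2 adjusted p = 0.00962), and was lost only without belinostat 17 (-0.97, adjusted p = 0.0686). CDC20 had 5.728, 3.663, 9.709 and 9.345, without overlap (-1.46, SE 0.45, DESeq2 adjusted p = 0.0125), and was lost without belinostat 18 or GSK-J4 22 (adjusted p = 0.0552 to 0.063). RRM2 (-1.02, SE 0.33, DESeq2 adjusted p = 0.019) and TOP2A (-0.65, SE 0.21, DESeq2 adjusted p = 0.0249) were lower but overlapped with GSK-J4 libraries. RRM2 was lost without belinostat 17 or 20 or GSK-J4 22 (0.0545 to 0.149), and TOP2A, at 58.24, 80.59, 85.23 and 109 in belinostat libraries, without belinostat 17, 18 or 19 or GSK-J4 21, 22 or 24 (0.0538 to 0.106).

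RRM1 was the gene that was higher after belinostat than after GSK-J4. It had 896, 927.7, 849.3 and 833.3 normalized counts in GSK-J4 libraries, all below the belinostat libraries (0.29, SE 0.09, DESeq2 adjusted p = 0.0107), and the call was lost without belinostat 17 or GSK-J4 24 (adjusted p = 0.0534 to 0.0574). The fitted differences of the subunits of ribonucleotide reductase had opposite signs, with RRM1 higher and RRM2 lower after belinostat. Both calls rested on belinostat 17, the highest of its group for RRM1 and the lowest for RRM2. Without it the differences were 0.21 and -0.78, and neither was called (DESeq2 adjusted p = 0.0574 and 0.0783). PCNA had 824.9, 747.3, 712 and 670.7 in belinostat and 873.7, 889.8, 879.8 and 824.9 in GSK-J4 libraries, where the highest belinostat and the lowest GSK-J4 library were almost level (-0.23, SE 0.09, DESeq2 adjusted p = 0.0925). PCNA was called lower with only the groups compared and without belinostat 17 (DESeq2 adjusted p = 0.0343 and 0.0236). MKI67, at -0.96 (SE 0.35), was not called (DESeq2 adjusted p = 0.0544). It was called without belinostat 19, belinostat 20 or GSK-J4 23 (DESeq2 adjusted p = 0.0305, 0.0419 and 0.025).

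Against unstimulated cells, belinostat cells still had 10 of the 59 genes called, all higher, 3 of S phase and 7 of mitosis. Of all genes tested, 10.3% were called and 5.51% were called higher, and 11 of the 59 were too low to be tested. The medians were 0.29 and 0.49, with 20 of 24 and 34 of 35 genes above 0, against -0.001 over all genes tested, and 11 genes had no overlap (5.68% of genes). MKI67 rose by 1.42 (SE 0.40, DESeq2 adjusted p = 0.00616), although replicate 17 overlapped with unstimulated libraries, and TOP2A rose by 0.95 (SE 0.23, DESeq2 adjusted p = 0.00104) without overlap. Both held in all 13 alternative fits. MCM4, a helicase subunit, had 55.97, 37.04, 91.44 and 91.78 normalized counts in unstimulated and 146.1, 171, 141.3 and 119.4 in belinostat libraries (1.06, SE 0.34, DESeq2 adjusted p = 0.0212), while its vehicle libraries ran from 74.74 to 179.9 and its GSK-J4 libraries from 57.97 to 146.3, a wide spread. NUSAP1 had 28.64, 48.84, 35.6 and 27 in belinostat libraries, all above unstimulated (1.07, SE 0.30, DESeq2 adjusted p = 0.00526), a call lost without belinostat 18 (0.88, adjusted p = 0.057).

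The other 6 calls of that comparison were each lost in several alternative fits. TYMS (0.35) was lost without unstimulated 2, 3 or 4 or belinostat 17, 18 or 19 (adjusted p = 0.065 to 0.125), and RRM1 (0.27) without unstimulated 3 or 4 or belinostat 17 (0.0625 to 0.13). MCM4, described above, was lost without unstimulated 1 or 2 or belinostat 18 (0.0871 to 0.123) and under edgeR (0.0602). CENPF (0.87) was lost without unstimulated 1, 2 or 4 or belinostat 18, 19 or 20 (0.0527 to 0.142) and BIRC5 (1.58) without unstimulated 2 or 3 or belinostat 19 or 20 (0.0544 to 0.0867). TPX2 (0.84) was lost without unstimulated 2, 3 or 4 or belinostat 17, 19 or 20 (0.0754 to 0.215), and HMMR (1.39) without unstimulated 2 or 4 or belinostat 19 or 20 (0.0723 to 0.114). Under edgeR CENPF (0.0512) and TPX2 (0.0801) were lost too, TPX2 also with TMM factors (0.0553). With only the groups compared all 6 were lost, at adjusted p = 0.0853 for TYMS, 0.164 for RRM1, 0.142 for CENPF, 0.0821 for BIRC5, 0.131 for TPX2 and 0.104 for HMMR. These genes encode enzymes of nucleotide supply and proteins of the kinetochore and spindle.

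Further genes of replication and mitosis were counted to see how far the pattern ran. Of 30 other replication genes (polymerase, origin and fork subunits) 0 were called by DESeq2 in each comparison except belinostat against GSK-J4, where POLE, the catalytic subunit of a leading-strand polymerase, was higher after belinostat by 0.32 (DESeq2 adjusted p = 0.0439). At an unadjusted p under 0.05, 1 passed in vehicle, 5 in GSK-J4 and 1 in belinostat against unstimulated cells, and 1 each for GSK-J4 and belinostat against vehicle, and edgeR called 0 of them in every comparison. The POLE call was lost under edgeR (0.0546) and without belinostat 17, 19 or 20 or any GSK-J4 library (0.0579 to 0.152). Their medians were 0.03, 0.10 and 0.04 in vehicle, GSK-J4 and belinostat against unstimulated cells. Of 40 other mitosis genes, 7 were called in GSK-J4 against unstimulated cells, all higher, with a median of 0.52, where 5.55% of all genes tested were called. In belinostat against unstimulated cells 3 were called, all higher, with a median of 0.45, where 10.3% of all genes tested were called, so this count is near the background share. The leading ones in GSK-J4 cells were ASPM (1.66, DESeq2 adjusted p = 0.00021), a protein of the spindle poles, CEP55 (1.63, DESeq2 adjusted p = 0.00708) of abscission, PBK (2.35, DESeq2 adjusted p = 0.00912), a mitotic kinase, and ESPL1 (1.94, DESeq2 adjusted p = 0.0129), the separase. ASPM held in all 13 alternative fits, CEP55 was lost without GSK-J4 24 (1.33, adjusted p = 0.0671), PBK without unstimulated 4 (1.94, adjusted p = 0.0607) and ESPL1 without unstimulated 4 or GSK-J4 21 or 22 (adjusted p = 0.0535 to 0.0725). Vehicle against unstimulated cells gave a median of 0.29 over the 40 with 36 above 0 and 0 called by DESeq2 or edgeR, while 7 passed at an unadjusted p under 0.05 in either. GSK-J4 and belinostat against vehicle also gave 0 calls with either tool, with 4 and 1 at an unadjusted p under 0.05 in DESeq2. Of the 40, DESeq2 tested only 19 and 31 in these comparisons, and edgeR 33 in each.

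Inhibitors of the cyclin-dependent kinases and the D cyclins, which set whether a cell leaves G1, were described beside them. CDKN1A had 5561 ± 283 normalized counts (SD, n = 4) in unstimulated, 5847 ± 261 in vehicle, 6656 ± 1360 in belinostat and 8210 ± 404 in GSK-J4 libraries. Its highest single library was belinostat replicate 17 (8676), whose mitotic mean of 0.23 was the lowest of the pulsed libraries. In GSK-J4 libraries CDKN1A rose by 0.49 over vehicle (SE 0.10, DESeq2 adjusted p = 0.000258) and by 0.56 over unstimulated libraries (DESeq2 adjusted p = 2.46e-06). Both calls held in all 13 alternative fits. In belinostat against vehicle libraries it was not called (0.19, DESeq2 adjusted p = 0.355). CDKN2B, the p15 inhibitor, had 415.0, 454.2, 444.3 and 441.7 in vehicle, 432.5, 616.6, 514.6 and 581.4 in belinostat and 363.1, 300.0, 309.9 and 300.8 in GSK-J4 libraries, which lay below all others. In GSK-J4 libraries CDKN2B fell by 0.46 against vehicle (SE 0.13, DESeq2 adjusted p = 0.0183). Against unstimulated libraries it fell by 0.54 (DESeq2 adjusted p = 0.000772). The second call held in all 13 alternative fits, and the first was lost under edgeR (0.0901) and without vehicle 14, 15 or 16 or GSK-J4 22, 23 or 24 (0.0716 to 0.122). CDKN2A, whose locus encodes p16, fell by 0.50 in GSK-J4 against unstimulated libraries (DESeq2 adjusted p = 2.78e-05), and CDKN1C, the p57 inhibitor, fell by 0.43 in belinostat against unstimulated libraries (DESeq2 adjusted p = 4.98e-07), both in all 13 alternative fits. Of the 7 inhibitors, 1 was called in vehicle, 2 in belinostat and 3 in GSK-J4 against unstimulated libraries, where 1.74%, 10.3% and 5.55% of all genes tested were called. The count was 0 for belinostat against vehicle, 2 for GSK-J4 against vehicle and 3 for belinostat against GSK-J4 libraries, where 6.26%, 1.92% and 12.2% of all genes were called. For belinostat against vehicle 2 of the 7 passed at an unadjusted p under 0.05, and edgeR called 0.

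CCND2, cyclin D2, gave the clearest difference between the compounds among these G1 genes. It had 458.8, 409.2, 404.3 and 488.7 normalized counts in vehicle, 762.8, 931.7, 962.3 and 828.6 in belinostat and 401.7, 343.0, 334.2 and 393.1 in GSK-J4 libraries. All belinostat libraries were above all others, with a rise of 0.98 over vehicle (SE 0.10, DESeq2 adjusted p = 3.4e-20) and of 1.24 over GSK-J4 libraries (DESeq2 adjusted p = 1.02e-31), in all 13 alternative fits. CCND1, cyclin D1, rose by 0.35 in vehicle against unstimulated libraries (DESeq2 adjusted p = 1.59e-05) and stayed at similar means of 6872, 6584 and 6799 in vehicle, belinostat and GSK-J4 libraries. Of the 20 G1 regulators, 3 were called in vehicle, 5 in belinostat and 2 in GSK-J4 against unstimulated libraries, where 1.74%, 10.3% and 5.55% of all genes tested were called. The count was 1 for belinostat against vehicle (6.26% of all genes), 0 for GSK-J4 against vehicle (1.92%) and 2 for belinostat against GSK-J4 libraries (12.2%), so the first and last of these are no higher than the background share. In GSK-J4 against vehicle libraries 2 of the 20 passed at an unadjusted p under 0.05 and 0 were called by DESeq2 or edgeR.

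**Figure D5:**
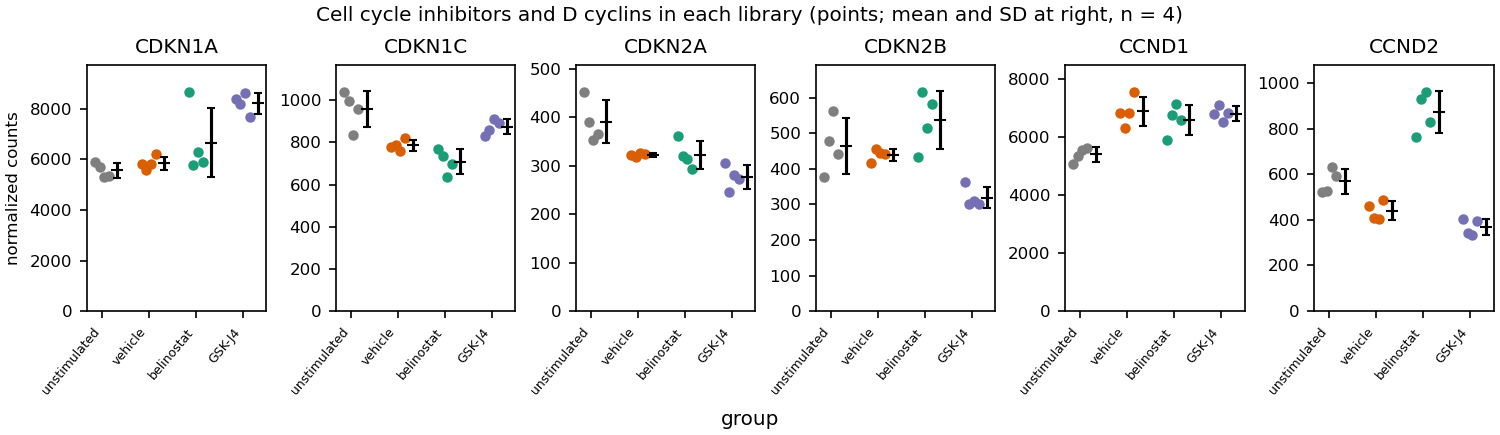
Points are normalized counts in each library for 4 inhibitors of cyclin-dependent kinases and 2 D cyclins, with the group mean and SD (n = 4) at right and every axis starting at 0. CCND2 is highest in the 4 belinostat libraries (762.8 to 962.3), and CDKN1A is high in the 4 GSK-J4 libraries (7662 to 8605) and in belinostat replicate 17 (8676).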

How the data were processed

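Bulk RNA of 16 libraries was quantified by the authors, per the submitters' processing notes with FastQC 0.11.9, MultiQC 1.14 and kallisto 0.48.0 against hg38. They deposited 1 table of estimated counts per gene symbol (28.0% of values above 0 have decimals), and the transcriptome release and the step from transcripts to symbols are not given in the sources used here. Libraries were made with a kit whose strand setting is not stated. Every column was matched to its sample by group and number, and 0 columns were left out. Unstimulated columns say none where the sample titles say dmso, and were matched by their number.

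Estimated counts were rounded and tested with DESeq2 1.42.0 (R 4.3.3, Wald test, median-of-ratios scaling, default filtering of low genes) in 1 fit of all 16 libraries with group as the term. Calls were made where the p adjusted by Benjamini-Hochberg over all genes tested was under 0.05, and genes that DESeq2 set aside were not counted as tested. Normalized counts are counts divided by the DESeq2 size factor. For each of 6 comparisons, 13 alternatives were run: edgeR 4.0.16 (quasi-likelihood, TMM), TMM factors, total count factors, a filter of at least 10 counts in at least 4 libraries, only the 8 libraries compared, and 8 fits without 1 library each. The DESeq2 and edgeR fits were tested on simulated counts, for vehicle against unstimulated libraries only. The other alternatives and comparisons were not. The 59 genes, the other lists and the naming rule were set with earlier results of these data known. Values in every library were given for 12 genes of well-known roles and for the 2 S phase and 2 mitotic genes with the smallest adjusted p in each comparison, 20 in all. Of the other lists up to 4 genes with the smallest adjusted p were named per comparison. Exons were compared in GENCODE 44 (GRCh38), and 13 of the 59 share exonic bases with another gene of a mean of at least 10 normalized counts, over 30% of them for TYMS and CCNE2. Promoters came from RefSeq. Counting error and the number of libraries limit precision, most for genes under 10 counts.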

Additional observations from a re-analysis of the deposited data

Results flagged for a closer look

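Among 88 sets of 4 libraries examined (the 20 genes given library by library and both class means in 4 groups), 7 held a library far from its group by Dixon's criterion, which chance exceeds in about 1 of 20 sets. For PCNA, unstimulated replicate 1 was high at 842.5 normalized counts (nearest 719.8). For TOP2A and CDK1, vehicle replicate 16 stood apart, low at 55.32 (nearest 79.95) and high at 259.1 (nearest 224.6). Vehicle replicate 13 was high for CCNB1 at 65.67 (nearest 49.83) and for MCM4 at 179.9 (nearest 87.56). Belinostat replicate 17 was high for RRM1 at 1238 (nearest 1025) and low for the S phase mean at -0.05 (nearest 0.44). Reasons for these 7 values were not tested.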

How the results depend on the processing

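No called fold change reversed its sign under the alternatives, while the medians of belinostat against vehicle, which lie near 0, ran from -0.07 to 0.04 (S phase) and from -0.02 to 0.11 (mitotic) without 1 library. The count of the 59 genes called ran, over the fits without 1 library, from 1 to 4 against 6 (vehicle against unstimulated), 0 to 2 against 1 (belinostat against vehicle), 1 to 3 against 3 (GSK-J4 against vehicle), 4 to 10 against 7 (belinostat against GSK-J4), 4 to 10 against 10 (belinostat against unstimulated) and 14 to 17 against 18 (GSK-J4 against unstimulated). Under edgeR it was 1 for vehicle against unstimulated and 1 for GSK-J4 against vehicle, with total count factors or the low count filter 2 for belinostat against vehicle, and with only the groups compared 4 for belinostat against unstimulated. Over all genes, the calls in vehicle against unstimulated cells went from 282 to 166 under edgeR and to 180 without unstimulated replicate 2, those in GSK-J4 against vehicle from 253 to 91 under edgeR, 542 with only the groups compared and 132 without vehicle replicate 15, and those in belinostat against unstimulated from 1461 to 876 with only the groups compared. The mitotic median of GSK-J4 against unstimulated was 1.08, and 0.85 under edgeR, where fewer of the low genes were tested. Of 45 calls, 19 held in all 13 alternatives and 35 under edgeR. The causes of lost calls were not tested. Fits without 1 library assume that the other libraries of its group vary alike. No paired analysis was possible because the groups share no replicate numbers. Genes under 10 normalized counts, 11 of the 59, are limited by depth.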
